A study of Homo sapiens with 6 samples.

Results

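ATF4 and 9 genes of the integrated stress response were described in SET-2 leukemia cells that had become resistant to OTX and in the parental line. The genes are ATF4, DDIT3, ASNS, CHAC1, TRIB3, DDIT4, CEBPB, ATF5, PPP1R15A and XBP1, chosen by name, and all 10 were found among the 19785 genes of the table, each in 1 row. SET-2 OTX P/R cells, a persister and resistant derivative of SET-2, gave 3 libraries, and SET-2 Parental cells gave the other 3. OTX is taken to be birabresib, a BET inhibitor that displaces bromodomain proteins from acetylated histones. Both lines are described as leukemia blasts of a secondary acute myeloid leukemia, were grown in RPMI with fetal serum and carried no drug when RNA was taken in exponential growth, so the comparison is between 2 untreated lines. With a single derivative, resistance and any other divergence of the lines cannot be told apart, and the p-values below measure the spread among cultures of 1 line each. In bulk RNA, fewer expressing cells and less RNA per cell cannot be told apart.

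In the integrated stress response, kinases that sense amino acid shortage, unfolded protein, double-stranded RNA or heme shortage phosphorylate the translation factor eIF2. General translation then falls while the ATF4 message is translated more, so ATF4 protein is controlled largely after transcription, and an RNA level shows only part of its activity. ATF4 pairs with other basic leucine zipper (bZIP) proteins and switches on genes for amino acid supply and, when stress persists, for cell death; XBP1 belongs to the neighbouring unfolded protein response, in which the kinase IRE1 splices its RNA.

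The regulatory stretches through which several of these genes are known to be read are shown first, for the 3 members that rose, for DDIT3, which fell, and for CHAC1, which shares an element with ASNS. Sequences are the 250 bases before the most upstream listed start of each gene, from RefSeq on GRCh38.p14, which is not the authors' build; all 10 genes had an entry. The searched motifs, on both strands, were the C/EBP-ATF response element TGATGNAA, the cyclic AMP response element TGACGTCA, the unfolded protein response element TGACGTG and the endoplasmic reticulum stress element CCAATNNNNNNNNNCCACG; no 2 matches overlapped, and capitals mark a match.
ASNS, chr7:97872409-97872658, minus strand: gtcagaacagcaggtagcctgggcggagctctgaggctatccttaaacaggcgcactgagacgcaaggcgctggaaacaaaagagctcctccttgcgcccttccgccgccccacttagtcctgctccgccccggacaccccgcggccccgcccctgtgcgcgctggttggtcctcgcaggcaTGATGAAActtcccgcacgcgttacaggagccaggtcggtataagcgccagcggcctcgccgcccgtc
CHAC1, chr15:40953221-40953470, plus strand: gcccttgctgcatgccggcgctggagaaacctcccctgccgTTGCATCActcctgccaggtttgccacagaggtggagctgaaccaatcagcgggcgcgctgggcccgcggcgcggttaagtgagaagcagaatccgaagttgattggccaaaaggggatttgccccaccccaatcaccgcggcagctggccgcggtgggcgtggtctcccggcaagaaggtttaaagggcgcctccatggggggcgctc
PPP1R15A, chr19:48872171-48872420, plus strand: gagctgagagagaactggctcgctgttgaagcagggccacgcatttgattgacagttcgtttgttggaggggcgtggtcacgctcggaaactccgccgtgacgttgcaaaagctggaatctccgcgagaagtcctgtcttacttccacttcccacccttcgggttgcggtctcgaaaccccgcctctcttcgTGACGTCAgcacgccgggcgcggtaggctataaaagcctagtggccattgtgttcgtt
XBP1, chr22:28800570-28800819, minus strand: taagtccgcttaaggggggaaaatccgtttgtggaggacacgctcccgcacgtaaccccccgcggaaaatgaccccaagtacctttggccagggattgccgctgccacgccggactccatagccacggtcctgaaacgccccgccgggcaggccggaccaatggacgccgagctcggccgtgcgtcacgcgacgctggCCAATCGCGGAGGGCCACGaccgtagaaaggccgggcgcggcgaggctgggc
DDIT3, chr12:57520518-57520767, minus strand: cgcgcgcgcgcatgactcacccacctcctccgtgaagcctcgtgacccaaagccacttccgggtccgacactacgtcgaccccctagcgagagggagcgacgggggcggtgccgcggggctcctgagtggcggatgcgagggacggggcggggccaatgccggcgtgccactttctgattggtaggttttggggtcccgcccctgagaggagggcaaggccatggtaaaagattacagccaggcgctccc

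ASNS held the C/EBP-ATF element from 68 to 61 bases before its start, and CHAC1 held it on the opposite strand from 209 to 202 bases before. That element occurred in 3.19% of the windows of 27305 genes. PPP1R15A held the cyclic AMP response element from 58 to 51 bases before its start, found in 1.75% of all windows. XBP1 held the endoplasmic reticulum stress element from 52 to 34 bases before its start, found in 21 windows or 0.0769% of all. DDIT3, TRIB3, ATF4, ATF5, CEBPB and DDIT4 had no match in this window, which says only that these letters are not there; the unfolded protein response element, in 1.72% of all windows, was in none of the 10. A match is a description of the sequence, not a measured site.

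The authors' values are normalized StringTie abundances on a linear scale, per transcript length, made equal in distribution across libraries, so each value tells a gene's rank in its library. On this scale ATF4 was the most abundant of the 10, with a mean over all 6 libraries of 169.0 and a rank at the 98.3 percentile of the genes in the table. XBP1, PPP1R15A and ATF5 followed at 73.4, 65.4 and 62.1, CEBPB at 23.7, TRIB3 at 13.0, DDIT3 at 9.62, ASNS at 9.59, DDIT4 at 9.06 and CHAC1 last at 0.988. Neighbours in this order were not always distinct: in parental libraries the ranges of PPP1R15A and ATF5 overlapped, and those of ASNS and DDIT4 did. In parental cells DDIT3 stood above ASNS in each library, whereas in OTX P/R cells ASNS stood above DDIT3 in each.

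The members did not move as a block. Of 9 tested members, those with a mean of at least 1, ASNS, PPP1R15A and XBP1 rose in OTX P/R cells, DDIT3 and TRIB3 fell, and ATF4, ATF5, CEBPB and DDIT4 did not pass; CHAC1 was below the limit for testing. A gene was called at a limma adjusted p under 0.05 over all 10741 genes tested, and 18.6% of these were called higher and 17.5% lower, so calls in both directions were common in the whole table. The changes were of modest size: no member that passed reached a fold of 1.5. On the log2(value + 1) scale the largest fitted change was -0.52, for DDIT4, which did not pass. Among members that passed it was -0.51, for DDIT3, beside a median size of 0.49 over all genes called. The median log2 fold change was 0.18 for the 9 members and 0.02 for all genes tested. Libraries of the groups did not overlap for 5 members that were higher and 2 that were lower, where 26.8% and 24.9% of all tested genes had such a pattern in those directions.

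**Figure D1:**
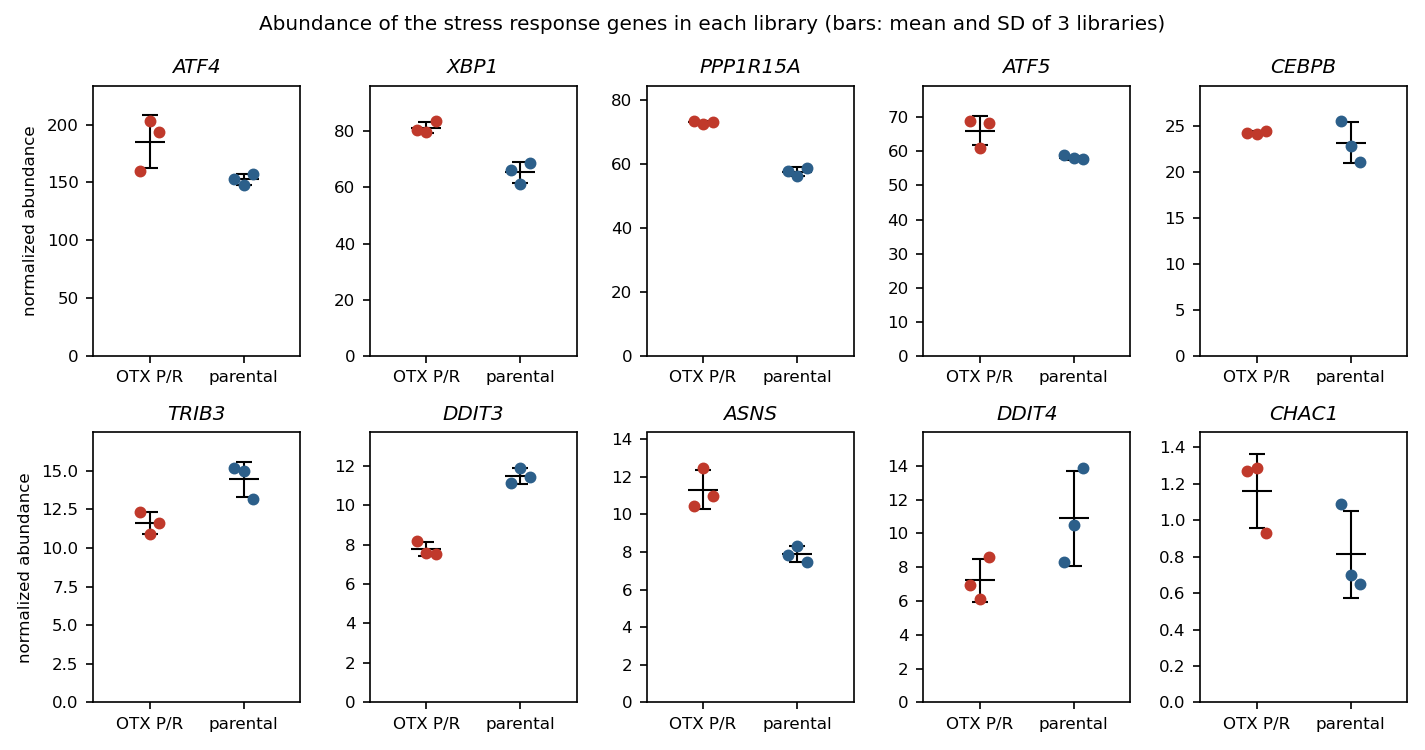
Normalized abundance (linear scale, from 0) of the 10 genes in each of 3 OTX P/R libraries (red, left) and 3 parental libraries (blue, right), with the mean and SD as black bars. The groups stood apart without overlap for ATF4, XBP1, PPP1R15A, ATF5, TRIB3, DDIT3 and ASNS, and overlapped for CEBPB, DDIT4 and CHAC1.

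ATF4, the transcription factor at the centre of the response, stood at 159.5, 202.9 and 193.7 in OTX P/R replicates 1 to 3, against 152.8, 147.9 and 157.1 in parental replicates 1 to 3. All OTX P/R libraries were above all parental ones, but replicate 1 lay close to the parental range and set the spread of its group. The means were 185.3 ± 22.9 in OTX P/R and 152.6 ± 4.59 in parental cells (SD, n = 3 each), and the fitted log2 fold change of 0.27 ± 0.09 SE (95% interval 0.04 to 0.50) did not pass (limma adjusted p = 0.0703). Without OTX P/R replicate 1 the log2 fold change was 0.38 and passed (limma adjusted p = 0.00707). In the other 13 alternative settings ATF4 did not pass (limma adjusted p up to 0.176). With single libraries left out its log2 fold change ranged from 0.20 to 0.38. GENCODE lists 4 pseudogenes named for ATF4, between which and the gene the authors' counting could split reads.

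DDIT3, which encodes CHOP, a dimer partner of C/EBP proteins tied to cell death under lasting stress, fell. Its values were 8.16, 7.59 and 7.54 in OTX P/R libraries, against 11.1, 11.9 and 11.4 in parental libraries. Every OTX P/R library was below every parental one, with means of 7.76 ± 0.343 in OTX P/R and 11.5 ± 0.395 in parental cells (SD, n = 3 each), 32.4% lower. The log2 fold change was -0.51 ± 0.06 SE (limma adjusted p = 0.00110), and it stayed between -0.56 and -0.37 and past the threshold in all 14 alternative settings. In GENCODE, DDIT3 overlaps MARS and MBD6 on the opposite strand, and AC022506.1 on the same strand over 2769 bases. Since it is not stated that counting used strand, reads could be shared, and with AC022506.1 also if strand was used. MARS did not pass, at 91.9 ± 8.02 in OTX P/R and 80.1 ± 1.40 in parental cells.

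ATF5, a relative of ATF4 that is also translated more under stress, had values of 68.8, 61.1 and 68.3 in OTX P/R libraries, against 58.8, 58.1 and 57.7 in parental libraries. The groups did not overlap, yet the gene did not pass at a log2 fold change of 0.18 ± 0.06 SE (limma adjusted p = 0.0575). Without OTX P/R replicate 2, the lowest of its group, it passed at 0.23 (limma adjusted p = 0.0215), in a range of 0.15 to 0.23 with single libraries left out. In the other 13 alternative settings ATF5 did not pass (limma adjusted p up to 0.157). ATF5 also overlaps genes on the opposite strand, NUP62 and IL4I1. CEBPB, a bZIP factor that binds the same composite element with ATF4, was at 24.2, 24.1 and 24.4 in OTX P/R libraries, against 25.5, 22.8 and 21.1 in parental libraries. The parental values enclosed the OTX P/R values, and the log2 fold change was 0.07 with an interval of -0.11 to 0.25 (limma adjusted p = 0.515). Its parental libraries spread 9.59% around their mean (coefficient of variation), and its OTX P/R libraries 0.621%.

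XBP1, the IRE1-spliced factor of the unfolded protein response, was at 80.4, 79.8 and 83.6 in OTX P/R libraries, against 66.3, 61.3 and 68.7 in parental libraries. The lowest OTX P/R library was above the highest parental one, with a log2 fold change of 0.31 ± 0.06 SE (limma adjusted p = 0.00729). The table gives 1 value per gene, so spliced and unspliced XBP1 RNA cannot be told apart.

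ASNS, asparagine synthetase and the classic target of ATF4 under amino acid shortage, showed the largest rise among the members. Its values were 10.5, 12.5 and 11.0 in OTX P/R libraries, against 7.83, 8.33 and 7.47 in parental libraries. No libraries overlapped, with means of 11.3 ± 1.05 in OTX P/R and 7.88 ± 0.434 in parental cells (SD, n = 3 each), 43.5% higher, and a log2 fold change of 0.47 ± 0.08 SE (limma adjusted p = 0.00609). ASNS lies on chromosome 7 among genes that were higher too: of 24 neighbouring tested genes, 12 on each side, 20 had a positive log2 fold change, and their median was 0.47, the size of the rise of ASNS itself. The part of the neighbourhood in the result was not tested. GENCODE lists 4 pseudogenes named for ASNS, and a processed transcript, AC079781.5, that overlaps ASNS on the same strand over 20425 bases.

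CHAC1, a glutathione-degrading enzyme that carries the same element as ASNS in the window shown, was scarcely expressed, at 1.27, 1.29 and 0.927 in OTX P/R libraries, against 1.09, 0.699 and 0.652 in parental libraries. Parental replicate 1 was above OTX P/R replicate 3, so the groups overlapped. Its mean of 0.988 was just under the limit of 1; when all 19779 complete genes were fitted, its log2 fold change was 0.26 with an interval of -0.07 to 0.58 (limma adjusted p = 0.232).

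The genes that feed back on the response or on growth went both ways. PPP1R15A, or GADD34, the stress-induced subunit that brings protein phosphatase 1 to eIF2 and so ends the translation block, was at 73.5, 72.7 and 73.3 in OTX P/R libraries, against 58.0, 56.3 and 58.8 in parental libraries. The replicates were tight and far apart, with means of 73.2 ± 0.417 in OTX P/R and 57.7 ± 1.27 in parental cells (SD, n = 3 each), a log2 fold change of 0.34 ± 0.04 SE (limma adjusted p = 0.00130). It stayed between 0.32 and 0.35 and past the threshold in all 14 alternative settings.

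TRIB3, a pseudokinase induced by ATF4 and CHOP that restrains AKT and ATF4 itself, was at 12.3, 10.9 and 11.6 in OTX P/R libraries, against 15.2, 15.0 and 13.1 in parental libraries. Its groups did not overlap, but OTX P/R replicate 1 and parental replicate 3 came close. The log2 fold change was -0.29 ± 0.08 SE (limma adjusted p = 0.0298). This call was lost in 6 of 14 alternative settings: without OTX P/R replicate 2 (limma adjusted p = 0.0924) or replicate 3 (0.0776), without parental replicate 1 (0.0820) or replicate 2 (0.0844), with no filter on low values (0.0502) and with the replicate number as a block (0.0566).

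DDIT4, or REDD1, which restrains the growth kinase complex mTORC1, was at 6.93, 6.14 and 8.60 in OTX P/R libraries, against 8.31, 10.5 and 13.9 in parental libraries. OTX P/R replicate 3 was above parental replicate 1, so the groups overlapped, and within the groups the values spread 17.4% of the mean in OTX P/R and 25.8% in parental cells. The log2 fold change of -0.52 had an interval of -0.99 to -0.04 and did not pass (limma adjusted p = 0.0862); without parental replicate 1 it was -0.68 and passed (limma adjusted p = 0.0408), and without parental replicate 3 it was -0.34 and did not (limma adjusted p = 0.182).

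**Figure D2:**
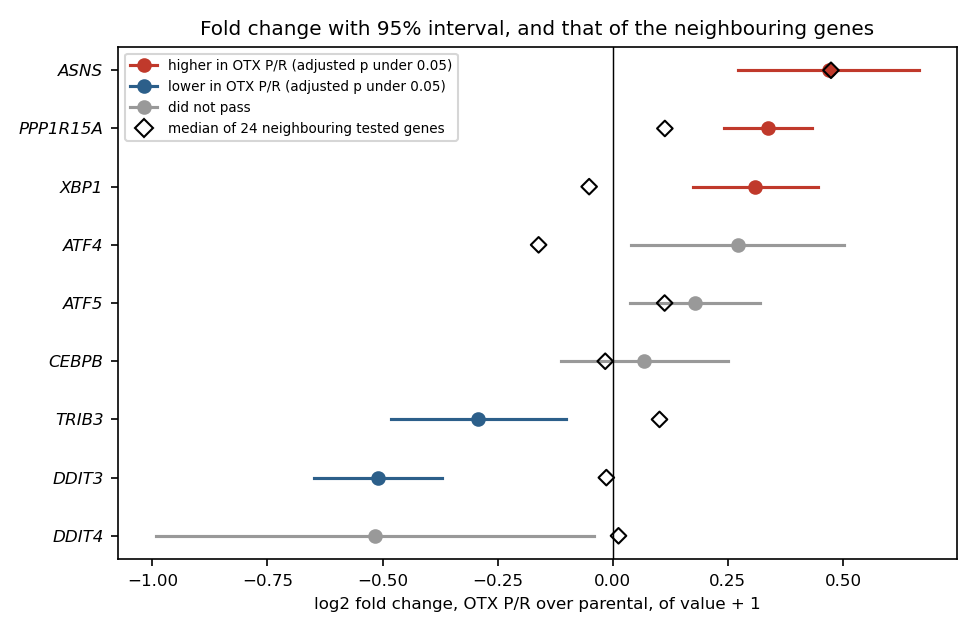
Log2 fold change of value + 1, OTX P/R over parental, with its 95% interval for the 9 tested members (red higher, blue lower, grey did not pass), and the median of 24 neighbouring tested genes (open diamonds). The diamond lies on the point for ASNS, at 0.47 for both, and away from the interval for XBP1, ATF4, TRIB3, DDIT3, DDIT4 and PPP1R15A.

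Outside chromosome 7 the neighbours of the members leaned little. The median log2 fold change of the 24 neighbouring genes ranged from -0.16 around ATF4, where 16 of 24 were lower, to 0.11 around PPP1R15A and ATF5. DDIT3 fell among neighbours with a median of -0.01, and TRIB3 among neighbours with a median of 0.10. XBP1 and ATF4 had positive log2 fold changes beside neighbours with medians of -0.05 and -0.16.

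Within a group the members did not follow ATF4 as one. After each group's mean was taken out, ATF4 was 0.21 below its group on the log2 scale in OTX P/R replicate 1, a library in which DDIT3 was 0.06 above its own group mean. DDIT4 was lowest in OTX P/R replicate 2 and in parental replicate 1 and highest in replicate 3 of both groups. Among the other genes of the pathway, those whose log2 values were most like ATF4 over the 6 libraries were MARS (Pearson r = 0.994), MTHFD2 (0.91) and CRELD2 (0.885) of 107 compared. These values hold the difference between the lines as well as the replicates, share the libraries and their ranking, and are given as a description.

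Around these members, 118 genes in 9 lists of kinases, translation factors, related transcription factors and targets were read from the same fit. Of 107 tested, 16 rose and 22 fell, or 35.5%, beside 36.1% of all tested genes, so as a whole these lists were called about as often as the table.

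The kinases that start the response were all expressed. EIF2AK1, the heme-regulated kinase, rose, at 45.3, 47.7 and 47.8 in OTX P/R libraries, against 32.8, 40.4 and 39.5 in parental libraries (log2 fold change 0.32, limma adjusted p = 0.0320), but the call was lost in 5 of 14 alternative settings (no filter, without any single OTX P/R library, and without parental replicate 3), with limma adjusted p up to 0.0911. EIF2AK2, the double-stranded RNA kinase PKR, was at 4.97, 5.08 and 6.36 in OTX P/R libraries, against 6.48, 7.25 and 7.51 in parental libraries, and did not pass (log2 fold change -0.33, limma adjusted p = 0.0537). EIF2AK3, the endoplasmic reticulum kinase PERK, and EIF2AK4, the amino acid sensor GCN2, had log2 fold changes of 0.04 and -0.02 and did not pass. KIAA0141, now called DELE1, the relay of mitochondrial stress to EIF2AK1, averaged 7.10 ± 0.833 in OTX P/R and 13.5 ± 1.25 in parental cells (SD, n = 3 each) and fell by 0.84 on the log2 scale (limma adjusted p = 0.00143). It lies on chromosome 5, and 16 of its 24 neighbours were lower, with a median of -0.37; the part of the neighbourhood was not tested. Of 12 subunits of eIF2, its exchange factor eIF2B and the eIF2 phosphatases none rose and 1 fell, EIF2S3, by 0.20 on the log2 scale, or 8.33% called beside 36.1% of all tested genes, with a list median of 0.06. EIF2S1, the subunit that is phosphorylated, was at 59.7, 60.3 and 68.1 in OTX P/R libraries, against 63.8, 36.9 and 38.0 in parental libraries, a log2 fold change of 0.47 with a 95% interval from -0.05 to 1.00 that missed the threshold (limma adjusted p = 0.135). EIF2S3 has a near-identical copy elsewhere in the genome, and its call was lost in 4 of 14 alternative settings. PPP1R15B, the constitutive relative of PPP1R15A, did not pass, at 10.1 ± 0.384 in OTX P/R and 9.33 ± 0.826 in parental cells.

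Of 11 tested bZIP factors related to ATF4 none rose and 2 fell, with a list median of -0.06. The share called was 18.2%, beside 36.1% of all tested genes. CEBPD averaged 2.84 ± 0.0896 in OTX P/R and 4.78 ± 0.211 in parental cells, and NFE2L2, the oxidative stress factor NRF2, averaged 18.4 ± 0.640 in OTX P/R and 23.5 ± 1.63 in parental cells (SD, n = 3 each). ATF3, a factor induced by ATF4, was below the limit for testing, at 0.159, 0.801 and 0.784 in OTX P/R libraries, against 1.09, 1.25 and 1.24 in parental libraries; without the filter it did not pass (limma adjusted p = 0.151).

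Among called amino acid genes more rose than fell, at a share of calls near that of the table. Of 19 tested ATF4 targets in amino acid synthesis and transport 6 rose, 2 fell and 11 did not pass. The list median was 0.20, and 1 gene was below the limit. The share called was 42.1%, beside 36.1% of all tested genes. The glycine transporter SLC6A9 was at 7.73, 5.21 and 5.03 in OTX P/R libraries, against 0.757, 1.45 and 0.787 in parental libraries, a log2 fold change of 1.80 (limma adjusted p = 9.83e-04). SLC1A4, a neutral amino acid transporter, rose by 0.56 on the same scale, and its relative SLC1A5, the glutamine transporter, averaged 212.7 ± 3.70 in OTX P/R and 148.9 ± 5.13 in parental cells (log2 fold change 0.51, limma adjusted p = 3.49e-04). SLC7A5, the large neutral amino acid transporter, rose by 0.42, while SLC7A11, the cystine transporter, fell by 0.29 and GOT1, an aspartate aminotransferase, fell by 0.26 on the log2 scale. CTH, of cysteine synthesis, and MTHFD2, of mitochondrial folate metabolism, also rose, by 0.47 and 0.19. The calls of SLC7A11, CTH and MTHFD2 were each lost in 4 or more alternative settings. SLC7A11 averaged 0.927 in OTX P/R cells and SLC6A9 averaged 0.999 in parental cells. Each therefore met the limit of 1 for testing only through the group where it was higher. PSAT1 and PHGDH, of serine synthesis, did not pass, and PHGDH varied widely, at 28.6, 26.0 and 13.4 in OTX P/R libraries, against 34.1, 73.0 and 18.7 in parental libraries.

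Of 13 genes of tRNA charging, 12 of them tRNA synthetases, 1 rose, 2 fell and 10 did not pass. The share called was 23.1%, beside 36.1% of all tested genes. LARS, for leucine, averaged 31.2 ± 3.78 in OTX P/R and 62.0 ± 4.87 in parental cells, a log2 fold change of -0.97 (limma adjusted p = 8.75e-04), and 23 of its 24 neighbours on chromosome 5 were lower too, with a median of -0.59. WARS, for tryptophan, fell by 0.58 on the log2 scale and YARS, for tyrosine, rose by 0.20; each of these calls was lost in at least 6 of 14 alternative settings.

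Most tested stress-induced targets of ATF4 and CHOP were lower in OTX P/R cells, with 7 of 10 fallen, 2 risen and 1 not passing. Their median log2 fold change was -0.49. Calls made up 90% of the tested genes of this list, beside 36.1% of all tested genes, where 17.5% were called lower. The list was chosen with earlier results of these data known, so this share and median are only a description. SQSTM1, the autophagy receptor p62, was at 15.8, 16.5 and 12.3 in OTX P/R libraries, against 39.1, 37.9 and 29.9 in parental libraries (log2 fold change -1.21, limma adjusted p = 0.00143). SQSTM1 lies on chromosome 5, and 22 of its 24 neighbours were lower, with a median of -0.42. TNFRSF10B, the death receptor raised by CHOP, was lower by a log2 fold change of -1.03, and HMOX1, which breaks down heme, averaged 17.4 ± 3.74 in OTX P/R and 36.4 ± 7.91 in parental cells and fell by 1.02. ERO1A, an oxidase of disulfide formation raised by CHOP, was at 4.56, 4.31 and 4.80 in OTX P/R libraries, against 9.32, 9.43 and 9.32 in parental libraries, a log2 fold change of -0.90 (limma adjusted p = 1.21e-04). The neighbours of these last 3 genes had medians between -0.09 and -0.02. SESN2, MAP1LC3B and FAM129A fell too, with log2 fold changes of -0.43, -0.34 and -0.56, but the SESN2 call was lost in 5 alternative settings and the MAP1LC3B call without OTX P/R replicate 1. VEGFA, an angiogenic factor that hypoxia also raises, went the other way with a log2 fold change of 1.70, and EIF4EBP1, a brake on cap-dependent translation, rose by 0.33. The other 6 genes of the list were below the limit for testing, so the count is not one over the whole list. Among them GDF15, a secreted stress cytokine, was at 0.411, 0.142 and 0.349 in OTX P/R libraries, against 1.51, 1.63 and 1.37 in parental libraries, and passed when tested without the filter (log2 fold change -0.95, limma adjusted p = 0.00307). STC2 and INHBE, fitted in the same way, did not pass (limma adjusted p = 0.186 and 0.0779).

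**Figure D3:**
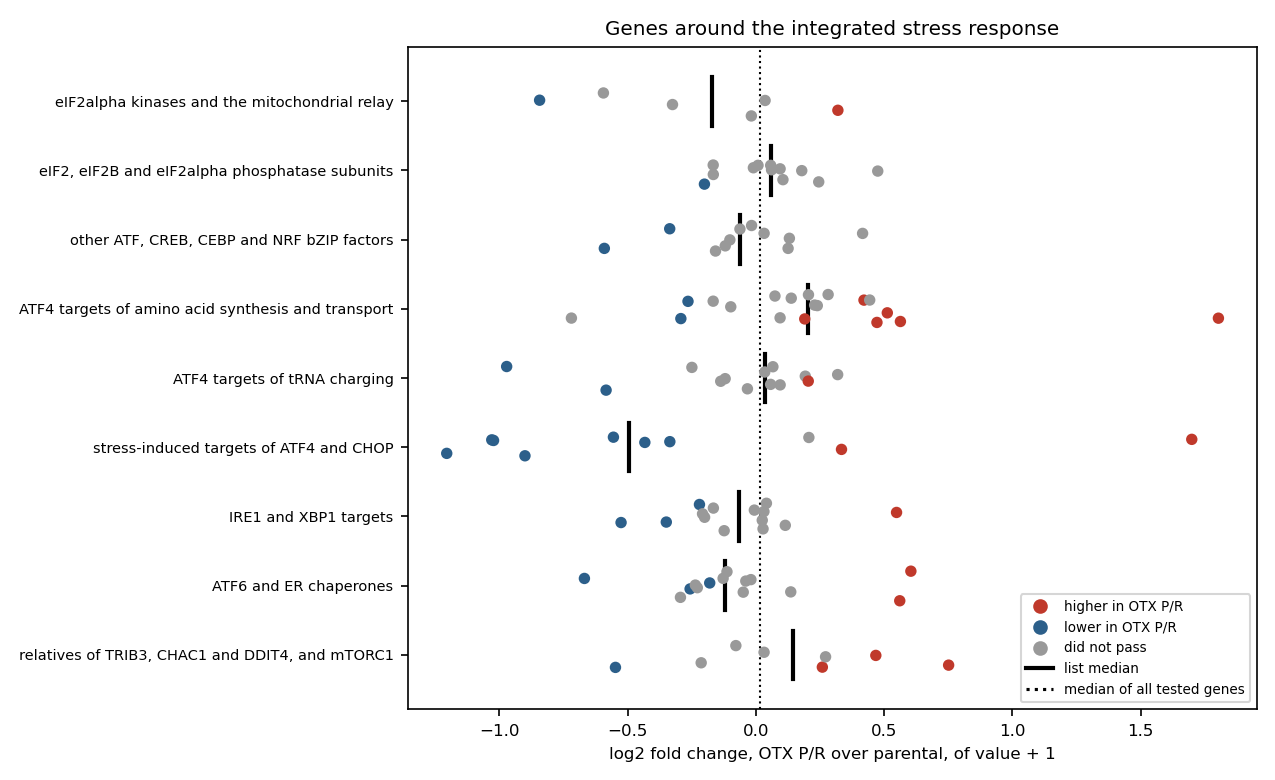
Log2 fold change of value + 1, OTX P/R over parental, of the tested genes in 9 lists (red higher, blue lower, grey did not pass; vertical position within a row is spread for display), with each list's median (black bar) and that of all tested genes (dotted line). The stress-induced targets of ATF4 and CHOP have a median of -0.49 and the amino acid targets one of 0.20, beside 0.02 for all tested genes. The 9 lists were chosen with earlier results of these data known.

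Beside the rise of XBP1 RNA, the genes of the IRE1 and XBP1 list had no common direction. Of 14 genes 1 rose and 3 fell while 10 did not pass, and their median was -0.06. The share called was 28.6%, beside 36.1% of all tested genes. ERN1, which encodes IRE1, did not pass, at 1.69, 1.92 and 1.57 in OTX P/R libraries, against 2.65, 1.82 and 1.98 in parental libraries. DNAJB9, a chaperone induced by XBP1, averaged 3.40 ± 0.120 in OTX P/R and 2.01 ± 0.171 in parental cells (SD, n = 3 each), and 22 of its 24 neighbours on chromosome 7 were higher too, with a median of 0.55. SEC24D, of vesicle coats, EDEM1, of glycoprotein disposal, and DNAJB11 fell, with log2 fold changes of -0.53, -0.35 and -0.22, and the DNAJB11 call was lost in 7 of 14 alternative settings.

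The endoplasmic reticulum stress element of XBP1 was also found in the windows of 4 genes of the ATF6 and chaperone list, out of 13 with an entry, and these are shown so that the genes that share the element can be read side by side. Each is written 5′ to 3′ on the strand that reads CCAAT, in capitals throughout, since each is a whole match.
XBP1, chr22:28800603-28800621: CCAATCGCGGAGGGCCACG
HSPA5, chr9:125241391-125241409: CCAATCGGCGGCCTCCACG
HSP90B1, chr12:103930216-103930234: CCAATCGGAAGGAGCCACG
HSP90B1, chr12:103930321-103930339: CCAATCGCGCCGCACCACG
CALR, chr19:12938384-12938402: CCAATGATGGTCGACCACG
CRELD2, chr22:49918554-49918572: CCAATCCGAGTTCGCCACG

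CRELD2, a secreted endoplasmic reticulum stress protein, rose, at 12.2, 15.7 and 13.3 in OTX P/R libraries, against 9.40, 8.49 and 8.13 in parental libraries (log2 fold change 0.60, limma adjusted p = 0.00573). HSP90B1, the chaperone GRP94, fell, averaging 172.6 ± 1.44 in OTX P/R and 195.8 ± 7.20 in parental cells (log2 fold change -0.18, limma adjusted p = 0.0200), a call that was lost in 4 of 14 alternative settings. HSPA5, the chaperone BiP, was at 124.2, 122.9 and 120.1 in OTX P/R libraries, against 135.2, 128.2 and 134.1 in parental libraries, and did not pass (log2 fold change -0.11, limma adjusted p = 0.0808). CALR, calreticulin, did not pass either (log2 fold change -0.29, limma adjusted p = 0.0548). It lies on a part of chromosome 19 where 21 of 24 neighbours were lower, with a median of -0.42. The ATF6 and chaperone list of 14 genes had 2 rises and 3 falls, 9 that did not pass and a median of -0.12. Its share called was 35.7%, beside 36.1% of all tested genes. PDIA4, a disulfide isomerase, rose by a log2 fold change of 0.56 on a part of chromosome 7 where 23 of 24 neighbours were higher with a median of 0.74. CANX, calnexin, fell by 0.67 on the log2 scale on the part of chromosome 5 that also holds SQSTM1, and ATF6 itself fell by 0.26, a call lost in 3 of 14 alternative settings.

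Of 8 tested relatives of TRIB3, CHAC1 and DDIT4 and genes of mTORC1, 3 rose, 1 fell and 4 did not pass, with a median of 0.15. The share called was 50%, beside 36.1% of all tested genes. TRIB2 fell as TRIB3 did, averaging 10.9 ± 0.149 in OTX P/R and 16.4 ± 1.25 in parental cells (log2 fold change -0.55, limma adjusted p = 0.00143), while TRIB1, at 1.33 ± 0.229 in OTX P/R and 0.684 ± 0.190 in parental cells, rose by 0.47. With a mean of 1.01 over all 6 libraries, TRIB1 met the limit for testing only through its OTX P/R values. Its call is therefore not independent of the filter. RHEB, the GTPase that activates mTORC1, had a log2 fold change of 0.75, and 23 of its 24 neighbours on chromosome 7 were higher, with a median of 0.75. MTOR rose by 0.26. The calls of TRIB1, RHEB and MTOR were lost in 5, 3 and 6 alternative settings. CHAC2, the constitutive relative of CHAC1, did not pass (log2 fold change 0.27, limma adjusted p = 0.0571).

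Among the 38 called genes of the 9 lists, 7 had a neighbourhood median of 0.3 or more in size and in their own direction: KIAA0141, LARS, SQSTM1 and CANX on chromosome 5 and DNAJB9, PDIA4 and RHEB on chromosome 7. These are single-gene values beside a shift shared by the genes around them, as for ASNS.

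**Figure D4:**
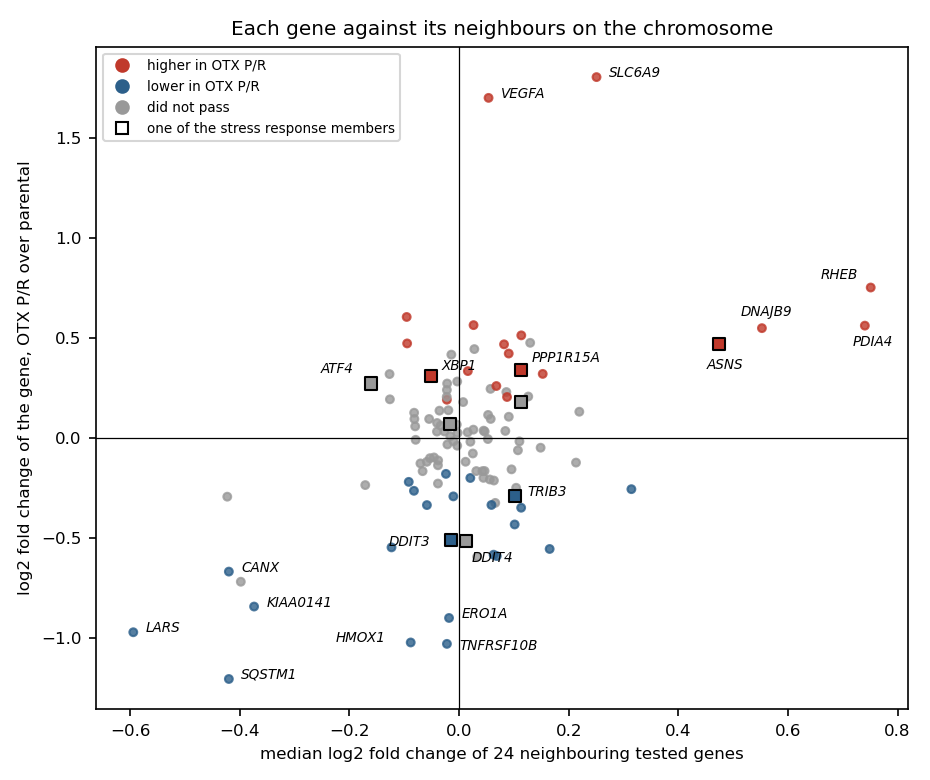
Log2 fold change of each tested gene, OTX P/R over parental (vertical), against the median log2 fold change of 24 neighbouring tested genes on its chromosome (horizontal), for the list genes (circles) and the 9 tested members (squares); red higher, blue lower, grey did not pass. ASNS, DNAJB9, PDIA4 and RHEB lie to the right and LARS, SQSTM1, CANX and KIAA0141 to the left, while DDIT3, TRIB3, XBP1 and PPP1R15A lie near 0 on the horizontal axis.

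Facts of the whole table that touch these values are few. The 8 blast and megakaryoblast markers examined were at 1 or more in every library. Of 11 markers of B, T, monocytic, stromal, epithelial, endothelial and liver cells 10 stayed under 1 in every library, and MS4A1 was at 0 in all. Their summed level was 2.37 to 2.65 in OTX P/R libraries and 0.413 to 0.961 in parental libraries; COL1A1, at 1.86 to 1.99 in OTX P/R libraries and at most 0.114 in parental libraries, made up most of the OTX P/R sum. The part of these markers in the results above was not tested. The values of all genes in a library summed to between 419375 and 419437 by construction, and the sequencing depth is unknown.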

How the data were processed

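RNA of 3 OTX P/R and 3 parental cultures was sequenced. The submitters' processing notes name Trim Galore, HISAT2, StringTie and hg19, without versions. The deposited values are a signal, StringTie abundance per gene, and whether FPKM or TPM is not stated. Sorted and set side by side, the 6 libraries were within 0.243% of each other above 1, as quantile normalization by the authors gives, so depth is unknown and no counting interval is given. Of 19785 genes 6 had a missing value and were left out.

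Log2(value + 1) of the 10741 genes averaging 1 or more entered limma 3.58.1 (R 4.3.3) (trended prior, two-sided, Benjamini-Hochberg over all genes). Fold changes on this scale understate those of low genes. Exact permutation of 3 against 3 libraries cannot give a two-sided p under 0.1. The fit was tested on simulated data. Neighbours are the 12 tested genes on each side (the nearest 24 at a chromosome's end) in GENCODE 29 order (GRCh38, used for order, overlaps and pseudogene names). Tables and plots used Python 3.11.15, pandas 2.3.3 and Matplotlib 3.10.9.

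The members and the 9 lists were chosen with earlier results of these data known. All members are given; in each list, up to 3 called genes per direction with the largest change and the eIF2 kinases are named, with other genes given by their values. For lists with more than 3 calls in a direction the remaining ones were named after their values were seen, so that each count is complete. Motif searches and the genes shown with them were also chosen after the data were seen. The 14 alternatives were other pseudocounts (0.1 or 5), no filter, a minimum mean of 5, priors without trend or robust, centring, the replicate number as a block, and each library left out.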

Additional observations from a re-analysis of the deposited data

How the results depend on the processing

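ASNS, PPP1R15A, XBP1 and DDIT3 kept their direction and their side of the threshold in all 14 alternatives, with log2 fold changes of 0.34 to 0.52, 0.32 to 0.35, 0.26 to 0.34 and -0.56 to -0.37. No tested member changed direction. The number of members lower was 2 and became 1 with no filter on low values, where TRIB3 was lost, and was 1 or 2 when single libraries were left out; the number higher ranged from 3 to 4 there. List genes called ranged from 11 to 16 higher and from 15 to 20 lower with a library left out, where the fit on 5 libraries has fewer samples. CHAC1 has a value only without the filter. The replicate numbers did not pair the cultures: deviations of same-numbered libraries over the tested genes correlated at -0.06, -0.03 and -0.00029, and no library correlated best with its own number. With the replicate block, 1607 genes were higher and 1552 lower, against 1998 and 1881 without it, and the members called were 3 higher and 2 lower, with DDIT4 (limma adjusted p = 0.0417) in and TRIB3 (0.0566) out. The values are ranks in a common distribution, so a shift shared by most genes cannot be seen, and at the level of CHAC1, ATF3 and GDF15 the depth behind a value is unknown.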
